A study of Capsicum annuum with 2 samples.

Results

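One assembled transcript of chili pepper (Capsicum annuum) anthers is described here, comp62048_c0_seq1, which the study annotated as a pectin methylesterase. It was found by its name in the deposited table and is 1 of 11387 unigenes (assembled transcripts) listed there. The lines compared are 121A, a cytoplasmic male sterile (CMS) line whose anthers form no functional pollen, and 121C, its near-isogenic restorer line. Both lines carry cytoplasm of the same sterile source and were backcrossed to the same inbred parent, and 121C in addition carries a single dominant nuclear gene that restores fertility. Anthers of several bud phases were taken from many plants of each line, and their pooled RNA gave a single sequencing library for each line. A difference between the lines therefore has no replicate check, no test of the lines could be made, and the 95% intervals given below cover counting error only. Differences among plants and among bud phases were averaged within each mixed sample and were not measured. The study chose this unigene for RT-PCR among those it had called different, so its direction in the same libraries is a description.

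Pectin methylesterases are enzymes of the plant cell wall. They remove methyl ester groups from homogalacturonan, the main chain of pectin, and thereby change how firmly the chains bind to each other through calcium and how easily polygalacturonases and pectate lyases cut them. In Arabidopsis, the pectin methylesterase encoded by QUARTET1 is needed for the pollen grains of a tetrad to separate, and the one encoded by VANGUARD1 for growth of the pollen tube, whose wall is rich in pectin.

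The unigene was 2031 bp long, the length by which its RPKM had been computed. The 11387 listed unigenes had a median length of 865 bp, and 10.3% of them were longer. Its assembled sequence was not used here. The amplified stretch is marked by the primer pair that the study used for real-time RT-PCR, printed 5′ to 3′ in lower case because it identifies the transcript chosen for both methods. The primer table names the unigene beside the reverse primer, and the forward primer, on the unnamed line that follows, was taken as its partner and was not checked against a sequence.
forward primer: gtcacatccaacacctcca
reverse primer: tgccaatgccaacaacact
Each primer has 19 bases, of which 10 are G or C in the forward primer and 9 in the reverse primer. No other unigene of the Trinity component comp62048 was listed, where a component is a group of assembled transcripts that share sequence. Likewise, 9114 of the 10127 components in the table (90.0%) had 1 listed unigene. Reads of other pectin methylesterase transcripts may be counted on it or lost from it, because the rule for reads that match several unigenes is not given in the sources used here.

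The pectin methylesterase transcript was abundant in the restorer library and nearly absent from the CMS library. In CMS line 121A, 4 reads were counted on it, and in restorer line 121C 13085 reads. Had it been as abundant in 121A as in 121C, 14718 reads would have been counted in the deeper CMS library. Expressed per length and depth, its level was 0.183 RPKM in 121A (95% Poisson interval 0.0499 to 0.469) and 674 RPKM in 121C (interval 663 to 686). RPKM divides the reads by unigene length and by library depth, so that levels can be compared between transcripts. Depth and library total mean here the read total behind the RPKM. In both lines it is smaller than the number of read pairs that the paper reports. The unigene took 1 read in 2686207 in 121A and 1 read in 730 in 121C, or 0.137% of the restorer library. The intervals of both lines lie far apart.

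After division by the library totals, 10744829 reads in 121A and 9552875 in 121C, the log2 ratio of 121A over 121C was -11.85 with an exact (Clopper-Pearson) interval of -13.72 to -10.49. By reads, the transcript was thus 3679-fold higher in the restorer line, with limits of 1437 and 13506. The width of this interval comes from the 4 reads of the CMS line, since 13085 reads leave little counting error. With 1 library per line the spread between libraries of a line is unknown. A coefficient of variation of 0.4 was therefore assumed for each library and added to the counting error. In a normal approximation on the log scale, the limits were then 838-fold and 16161-fold. These limits are not exact ones, so their width cannot be compared directly with that of the Clopper-Pearson interval. In RNA of whole anthers, fewer cells that contain the transcript and less transcript per cell cannot be told apart. The paper reports that real-time RT-PCR gave a smaller change for this unigene than sequencing did. The size of that change is not given here, so the fold from reads has no second measure beside it.

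**Figure D1:**
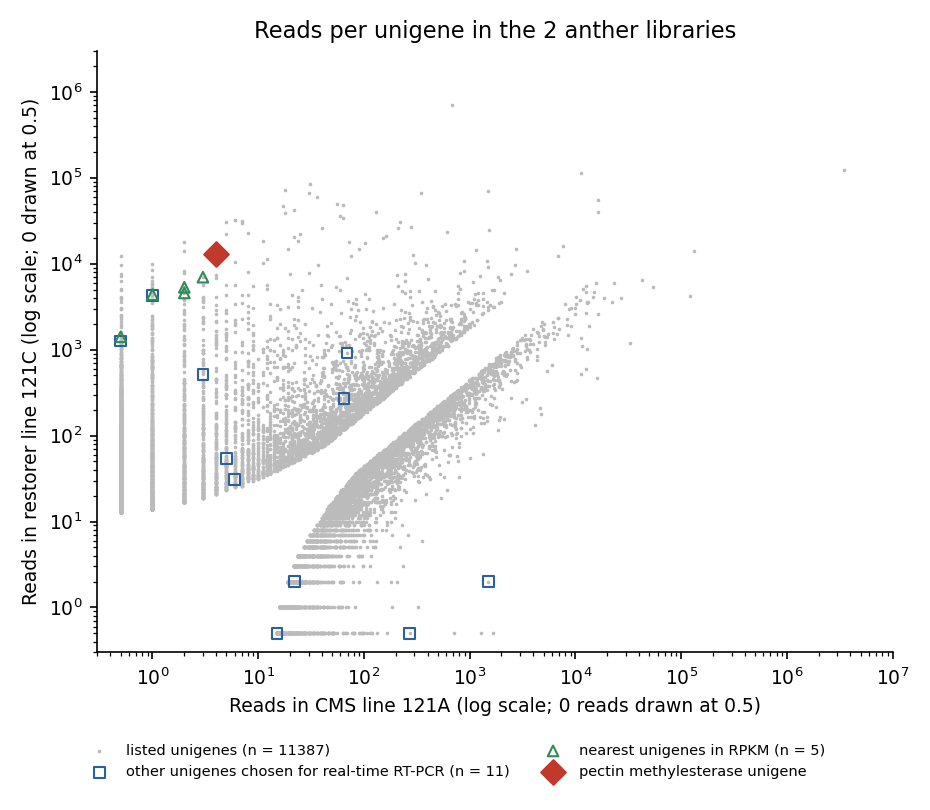
Reads in CMS line 121A (x axis, log scale) and in restorer line 121C (y axis, log scale) of each of the 11387 listed unigenes, with 0 reads drawn at 0.5. The pectin methylesterase unigene (red diamond, 4 and 13085 reads) lies in the upper left. Unigenes of the empty diagonal, with ratios near 1, were not analysed here, and the 5 unigenes nearest in RPKM (triangles) lie lower, as they are shorter and have 507 to 617 RPKM in 121C.

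Its rank differed as much between the lines. Among the listed unigenes it stood in place 8245 by RPKM in 121A, where the median was 3.07 RPKM. In 121C it stood in place 69, within the top 0.606%, at 107 times the median of 6.32 RPKM. By reads, which are not adjusted for length, the places were 7529 in 121A and 51 in 121C. Unigenes that were not listed could not be ranked, so the places in the whole anther transcriptome may be lower. In 121C the unigene directly above it was comp59916_c12_seq1, with 688 RPKM, and the one directly below it was comp26951_c0_seq1, with 664 RPKM. The interval of the pectin methylesterase level, 663 to 686 RPKM, includes the level below it and not the one above it. The CMS library separates these neighbours. There, comp59916_c12_seq1 had 0 reads, while comp26951_c0_seq1 had 882 reads or 62.8 RPKM, and its log2 ratio was -3.40 (interval -3.50 to -3.30).

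Of the listed unigenes, 7061 (62.0%) were higher in 121C and 4326 (38.0%) were higher in 121A. All of them had passed an absolute log2 ratio of at least 1 before they were listed, so the direction of the pectin methylesterase unigene is that of most of the table. When ratios were scaled by the summed RPKM of the listed unigenes instead, the median of all listed was -0.03. Of the listed unigenes past a log2 ratio of 1 in size, 4765 were then higher in 121C (52.4%) and 4326 were higher in 121A. The number for 121A could not change, because unlisted unigenes that this scale would bring past the threshold are missing. The share of 52.4% is therefore not the balance of the lines on that scale. On the scale of the library totals, the median log2 ratio was -1.78 over all listed unigenes and -4.87 over those higher in 121C, and the pectin methylesterase unigene had the 46th lowest. Of the 45 unigenes with a lower ratio, 21 had 0 reads in 121A, and their ratio depends on the 0.5 read set in place of 0. Ordered by the interval limit nearest to no difference, it stood in place 25. By this limit, 42 listed unigenes (0.369%), the pectin methylesterase unigene among them, were at least 1000-fold higher in 121C, and 0 were at least 1000-fold higher in 121A. The first number was 28 when the 10 top listed unigenes per library were left out of the totals, and 1 on the scale of summed RPKM of the listed unigenes. Its interval did not lie wholly above or below that of 3055 other unigenes, and 0 unigenes had an interval wholly below it. However, 2607 listed unigenes had 0 reads in 121A, so their intervals have no lower limit. Overlap with these does not show a like ratio.

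A bound of 1000-fold needs many reads in the restorer line. It was reached by 22 of the 59 unigenes higher in 121C with at least 10000 reads there, by 20 of the 593 with at least 1000 but under 10000 reads, and by 0 of those with fewer. Median log2 ratios in these classes were -9.75 and -3.82. Apart from the pectin methylesterase unigene, 147 listed unigenes had 4 reads in 121A, with a median of 56 reads in 121C. That all 147 were higher in 121C follows from the listing, as 4 reads are too few to be called higher in 121A. One of these, comp61964_c0_seq1, had more reads in 121C than the pectin methylesterase unigene, 13819.

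The pectin methylesterase unigene was next set beside transcripts measured at a similar level in the restorer line. The RPKM of 94 other listed unigenes in 121C was within 2-fold of its own, between 350 and 1303 RPKM. Of these, 83 were higher in 121C and 11 were higher in 121A. Of all listed unigenes 62.0% were higher in 121C, and a class chosen by a high level in 121C favours that direction. The median log2 ratio of the 94 was -8.16, with quartiles of -11.61 and -3.30. The pectin methylesterase transcript, at -11.85, thus lay just below the lower quartile of these 94, which include only unigenes called different. A ratio at or below its own was found for 23 of the 94 (24.5%). Of these 23, 9 had 0 reads in 121A, 13 had 1 to 3 reads, and 1 had at least 4 reads. The intervals of 43 of the 94 overlapped that of the pectin methylesterase unigene, 51 lay wholly above it, and 0 lay wholly below it. Overlap of intervals is not a test of the ratios, so some of these 43 may still differ from it beyond counting error. The log2 ratio was at or below -9 for 44 unigenes, between -9 and -5 for 21, and between -5 and -1 for 18.

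**Figure D2:**
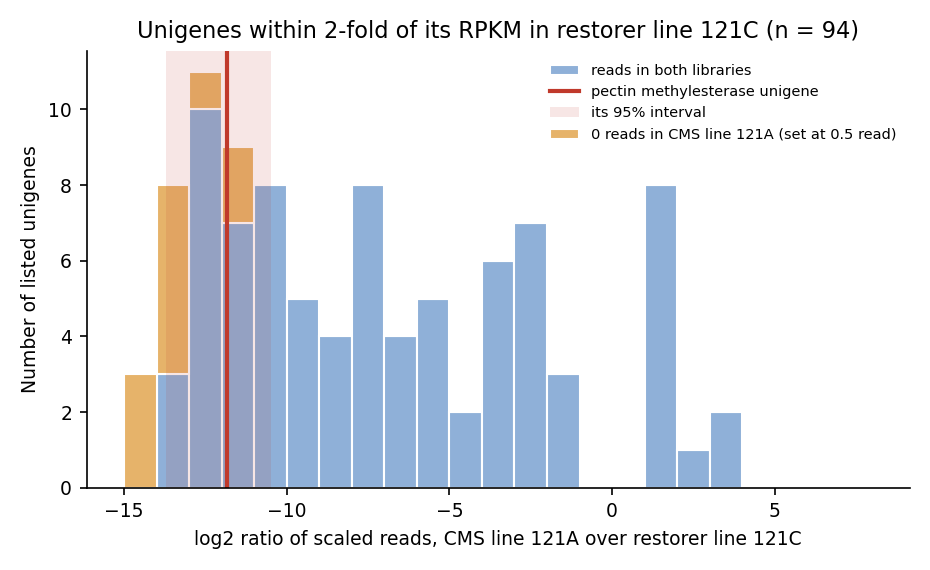
Number of unigenes (y axis) by log2 ratio of 121A over 121C (x axis, bins of 1) for the 94 listed unigenes whose RPKM in restorer line 121C is within 2-fold of that of the pectin methylesterase unigene. Its ratio of -11.85 (red line; shaded, 95% interval) falls among the 44 unigenes at or below -9, and 11 unigenes are higher in 121A; ratios between -1 and 1 are not listed.

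At least 10000 reads in 121C were counted for 60 other unigenes, of which 58 were higher in 121C and 2 were higher in 121A. This choice by reads in 121C likewise favours unigenes higher there, against 62.0% of all listed. At most 4 reads in 121A were counted for 4 of the 60 (6.67%). This share depended on how abundant unigenes were chosen. It was 20.7% (24 of 116) from 5000 reads in 121C, 20.6% (14 of 68) from the RPKM of the pectin methylesterase unigene upwards, and 36.2% (34 of 94) within 2-fold of its RPKM. Of the 4 with at least 10000 reads, comp54728_c0_seq1 had 2 reads in 121A and 17784 in 121C. The unigene comp38609_c1_seq1 had 2 and 14144 reads, comp61964_c0_seq1 had 4 and 13819, and comp59916_c12_seq1 had 0 and 12414. For the last, the limit of the Clopper-Pearson interval nearest to no difference was 3785-fold. These unigenes carry no annotation here. For each 10000 reads in 121C, 3.06 reads were counted in 121A on the pectin methylesterase unigene. Among the 58 other unigenes higher in 121C this number had a median of 13.2 and quartiles of 3.998 and 99.4. It was lower than that of the pectin methylesterase unigene in 11 of the 58, and 21 of the 58 lay between 1 and 10.

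The 5 listed unigenes most like it were found by the distance in log2 RPKM over both libraries, with 0 reads taken as 0.5 read. The nearest was comp62339_c0_seq1, at a distance of 0.25, with 0 reads in 121A and 1409 reads or 567 RPKM in 121C. The next was comp56984_c1_seq1, at a distance of 0.37, with 0.220 RPKM in 121A and 563 RPKM in 121C. Distances of 0.39, 0.43 and 0.56 were found for comp38549_c0_seq1, comp38637_c0_seq1 and comp26892_c0_seq1. All 5 had at most 3 reads in 121A, so their order in likeness can change with a single read. Their intervals all overlapped that of the pectin methylesterase unigene. None of the 5 has an annotation among those used here.

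A set of unigenes of known function was also chosen for real-time RT-PCR. By reads, 4 of these 12 unigenes were higher in 121A and 8 were higher in 121C. The pectin methylesterase unigene had the highest level of the 12 in the restorer line. Its 674 RPKM were 2.64 times those of the next, the ADP/ATP translocator unigene comp62432_c0_seq1, which exchanges ATP across the inner mitochondrial membrane, with 256 RPKM. It held 64.2% of the 20375 reads that the 12 unigenes took in 121C. Its ratio was the second lowest after that of comp62432_c0_seq1, which was -12.22 with an interval of -17.53 to -9.74. The F-box and wd40 domain protein unigene comp66553_c0_seq1, a possible substrate receptor for protein degradation, had 0 reads in 121A and 1257 in 121C, and the limit of its interval nearest to no difference was 383-fold. The intervals of these 3 unigenes overlap, so their order is not fixed by the reads. That of the peroxidase unigene comp71609_c0_seq1, an enzyme that uses hydrogen peroxide, was -9.88 to -6.04 and lay above that of the pectin methylesterase unigene. The other 8 had intervals that lay farther above it.

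**Figure D3:**
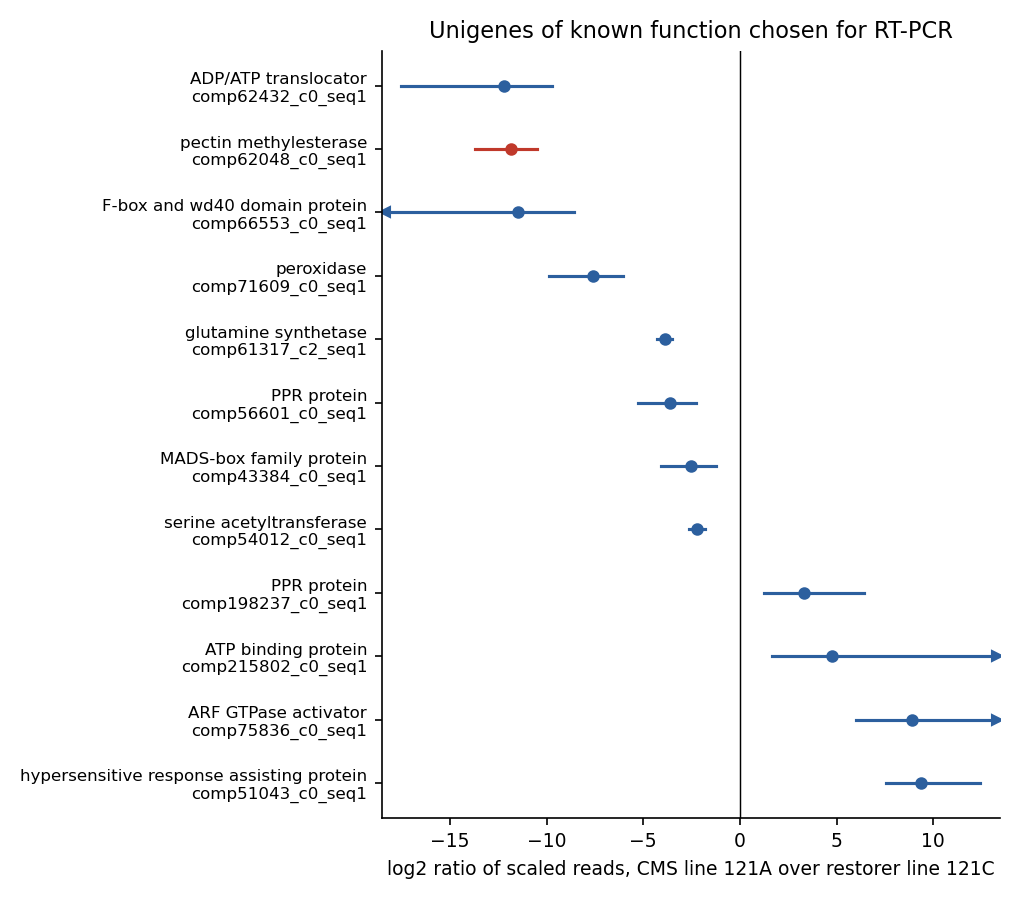
Log2 ratio of scaled reads, 121A over 121C (x axis), of the 12 unigenes of known function chosen for RT-PCR, with points for the ratio (0 reads set at 0.5 read) and lines for the 95% Clopper-Pearson interval. Arrowheads mark intervals without a limit, and the pectin methylesterase unigene (red, -11.85) has the narrowest interval of the 3 lowest.

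Other pectin and cell wall genes were looked up in the 1999 annotations used here, the first by name in the study's list, which hold no listed unigene with more than 215 reads in 121C. Of these 1999 unigenes, 317 (15.9%) were listed as different between the lines, and 176 of the 317 were higher in 121C. An annotation as pectin methylesterase or pectinesterase was found for 3 others, comp130403_c0_seq1, comp13130_c0_seq1 and comp13692_c0_seq1. None of the 3 was among the listed unigenes, and their levels were not analysed here. Of 9 unigenes of other enzymes that act on pectin, 2 were listed, and they went in opposite directions. A polygalacturonase unigene, comp218988_c0_seq1, of an enzyme that cuts de-esterified pectin, had 1 read in 121A and 17 in 121C, a log2 ratio of -4.26 (interval -9.64 to -1.58). A beta-galactosidase unigene, comp135776_c0_seq1, of an enzyme family that trims galactan side chains, had 18 reads in 121A and 1 in 121C, a log2 ratio of 4.0003 (interval 1.34 to 9.38). Within these 1999 annotations, other pectinesterases thus gave no value, and the 2 other pectin enzymes listed, both with few reads, did not share a direction. The 1999 are only a part of the study's annotations and do not include comp62048_c0_seq1 itself. Pectin enzymes in the rest were not looked up.

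Of 12 unigenes for other wall proteins, 3 were listed. The endo-xyloglucan transferase unigene comp145168_c0_seq1, of an enzyme that cuts and rejoins xyloglucan, had 42 reads in 121A and 4 in 121C, a log2 ratio of 3.22 (interval 1.76 to 5.16). The beta expansin unigene comp178367_c0_seq1, of a protein that loosens the wall, had 29 reads in 121A and 4 in 121C, with a log2 ratio of 2.69 and limits of 1.18 and 4.66. The unigene comp193426_c0_seq1, annotated as an inhibitor of a xyloglucan-specific endoglucanase, had 1 read in 121A and 35 in 121C, with a log2 ratio of -5.30 and limits of -10.64 and -2.73. Over the 24 wall unigenes, 5 (20.8%) were listed, 3 of them higher in 121A and 2 higher in 121C. At 4.41 RPKM or less, all 5 were far below the 674 RPKM of the pectin methylesterase unigene in 121C. No listed unigene among these annotations had more than 215 reads in 121C. A wall unigene near that level could therefore not have been found there. As markers of anther tissue, a tapetum-specific zinc finger protein unigene and a major pollen allergen unigene were annotated. The pollen allergen unigene is also counted among the 12 for other wall proteins. Neither marker was among the listed unigenes, and their levels were not analysed here.

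The direction of the 3679-fold difference was the same under each of the 3 other scalings and both pseudocounts tried. This is no check of the direction. A pseudocount cannot reverse it, and the shifts of these scalings are far smaller than the ratio. The top listed unigene of each library held 32.3% of the reads in 121A and 7.34% in 121C, and these reads enter the library totals. A scale based on the summed RPKM of the listed unigenes raised all log2 ratios by 1.75 and gave -10.09 (interval -11.97 to -8.73). On this scale, and in the normal approximation with a coefficient of variation of 0.4 assumed, the pectin methylesterase unigene no longer passed the 1000-fold bound.

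**Figure D4:**
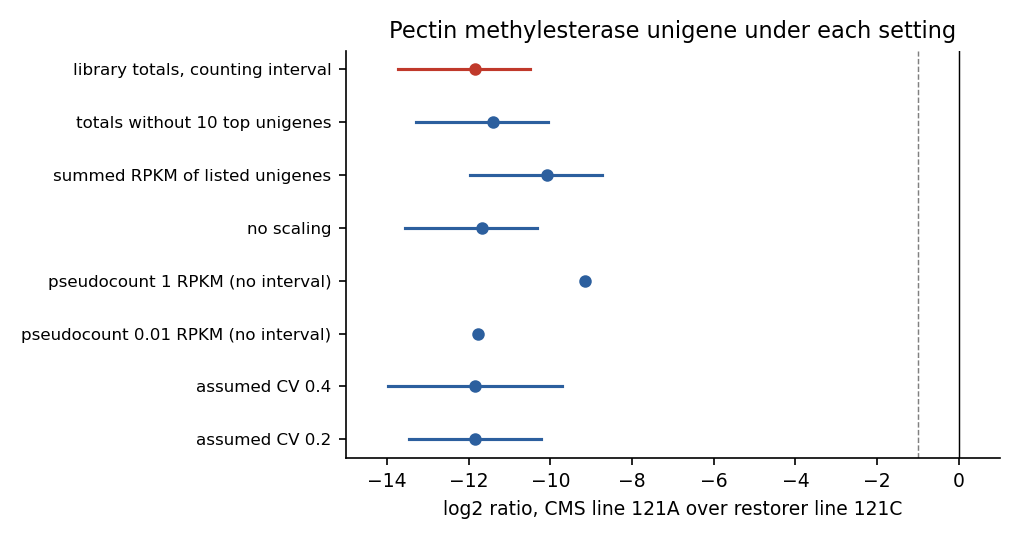
Log2 ratio of 121A over 121C (x axis) of the pectin methylesterase unigene under each setting that changes its value or interval, with 95% intervals as lines. Intervals with an assumed coefficient of variation (CV) are normal approximations on the log scale, and the others are Clopper-Pearson intervals, so their widths cannot be compared directly. The ratios lie between -11.85 and -9.16, and the dashed line marks the threshold of -1 used for listing.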

How the data were processed

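Anther RNA was mixed per line and sequenced as 1 library for CMS line 121A and 1 for restorer line 121C. By the paper's methods, the authors processed the raw data with CASAVA, removed reads of low quality and short reads, and assembled both lines with Trinity. The aligner and the rule for reads matching several unigenes are not given in the sources used here. The authors deposited counts, whole reads per unigene without normalization, and RPKM computed from them. Their log2 ratio and q-value, also deposited, compare the lines by the MARS method of DEGseq and were not used. Only unigenes called different by the authors are listed.

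Library totals were recovered from counts and RPKM, as unigene lengths are whole numbers (largest deviation 5.47e-05). They are the totals by which the RPKM had been computed and not the numbers of read pairs reported in the paper. The listed unigenes held 56.0% of the reads in 121A and 57.3% in 121C. Log2 ratios were computed from reads divided by these totals, with 0 reads set at 0.5 read, and Clopper-Pearson intervals of the share of 121A in both libraries' reads were converted to ratios (Python 3.11.15, scipy 1.17.1, numpy 2.4.6, pandas 2.3.3). The interval code was tested on simulated data. With 1 library per line no count model with replicates could be fitted, so no p-value is given. Besides comp62048_c0_seq1, the unigenes named are its nearest 5, its neighbours in rank, the 12 chosen for RT-PCR and annotated wall genes. The 4 with at least 10000 reads in 121C and at most 4 in 121A were named after their values were seen. The unigene, lists and rules were chosen with earlier results of these data known. Other scalings, pseudocounts, assumed variation, length filters, abundance classes and component sums were tried as alternatives.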

Additional observations from a re-analysis of the deposited data

How the results depend on the processing

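The log2 ratio of the pectin methylesterase unigene stayed within its interval with no scaling and with a pseudocount of 0.01 RPKM. It also did so when the 10 top listed unigenes per library were left out of the totals, which raised all ratios by 0.43. Component sums could not change the ratio, as no other unigene of its component was listed. The ratio was -10.09 when scaled by the summed RPKM of the listed unigenes. It was -9.16 with a pseudocount of 1 RPKM, which by its construction shrinks the ratio of a transcript below 1 RPKM in 121A. Its ranks stayed within 1.5 times under each alternative. The number of unigenes of similar restorer level with a ratio at or below its own, 23 of 94, was 12 of 54 within 1.5-fold, 37 of 301 within 4-fold, and 13 of 62 when reads within 2-fold were taken. Choices made after the data were seen gave 15 with 0 reads set at 3 reads, and 0 with an interval wholly below. Abundant unigenes with at most 4 reads in 121A, 4 of 60, were 24 of 116 from 5000 reads and 14 of 68 from its RPKM upwards, and the cause was not tested. The 4 reads of 121A limit every value of that line. No paired analysis was possible because each line has 1 library.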
